A study of Homo sapiens with 6 samples.

Results

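The aldehyde dehydrogenase, aldo-keto reductase and alcohol dehydrogenase genes were described in HCCLM3 cells, a human hepatocellular carcinoma line, after a short hairpin RNA against ATXN7L3. The genes were taken by symbol from the deposited counts (names of the forms ALDH1A1, AKR1C1 and ADH1C), which gave 37 of 34234 genes, of which 18 are aldehyde dehydrogenases (ALDH), 12 aldo-keto reductases (AKR) and 7 alcohol dehydrogenases (ADH). ALDH2, whose symbol lacks the subfamily letter, falls outside this pattern and is given with the related enzymes. All cells received a lentivirus, which carried either the ATXN7L3 hairpin (shATXN7L3, 3 libraries) or a control hairpin (shcontrol, 3 libraries), and the medium was changed after 16 hours. ATXN7L3 is an adaptor of the SAGA deubiquitinase module. The labels name 1 hairpin treatment per group and give neither the time of harvest nor separate cultures, so the p-values reflect variation among the 6 libraries, and that variation may be only technical.

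Alcohol dehydrogenases oxidise alcohols such as ethanol and retinol to aldehydes, and aldehyde dehydrogenases oxidise aldehydes onward to acids. Aldo-keto reductases act in the opposite sense and reduce aldehydes and ketones, among them retinaldehyde, glucose and steroid ketones. In liver these enzymes handle ethanol, retinoids, steroids, lipid peroxidation products and intermediates of amino acid breakdown. ALDH1A1 is also used as a marker of stem-like cancer cells, and AKR1B10 is known for high expression in hepatocellular carcinoma.

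Libraries held 22757031 to 23915783 counts in shATXN7L3 and 22376867 to 23033763 in shcontrol. Counts of the 37 genes made up 0.707% to 0.737% of the shATXN7L3 libraries and 0.852% to 0.936% of the shcontrol libraries. ATXN7L3 itself stood at 20.2 ± 0.655 CPM in shATXN7L3 and 37.1 ± 0.647 CPM in shcontrol (counts per 1e6, scaled by trimmed mean of M values; SD, n = 3 in each group). This was a log2 fold change of -0.88 ± 0.0563 SE, with an edgeR adjusted p of 6.69e-10. The two-sided exact permutation test of the target gave p = 0.1, the smallest that 3 against 3 libraries allow. Of 6 hepatocyte markers, 5 were tested and 5 fell, and their summed level was 87.5 to 90.7 CPM in shATXN7L3 and 161 to 183 CPM in shcontrol. The sixth, APOA1, was nearly absent, at 0.181 CPM in shATXN7L3 and 0.418 CPM in shcontrol. TTR, 1 of the 5, also rested on few reads (0.322 CPM in shATXN7L3, 0.758 CPM in shcontrol), and its call ended with DESeq2 (adjusted p = 0.132). The call of TTR ended as well without shcontrol replicate 1 (edgeR adjusted p = 0.0697) or 3 (0.0673), or without shATXN7L3 replicate 1 (0.0651) or 3 (0.153). Markers of other liver cells summed to 27.4 to 28.9 CPM in shATXN7L3 and 40.3 to 46.8 CPM in shcontrol for endothelium (1 of 4 tested, PECAM1, lower), and to 5.14 to 6.03 CPM in shATXN7L3 and 23.5 to 27.8 CPM in shcontrol for stellate cells and fibroblasts (1 of 5 tested, LUM, lower). Leukocyte markers summed to 120 to 125 CPM in shATXN7L3 and 89.7 to 109 CPM in shcontrol (CD68 higher, LYZ lower), and cholangiocyte markers to 105 to 114 CPM in shATXN7L3 and 86.8 to 105 CPM in shcontrol (KRT19 and EPCAM higher, KRT7 lower, of 4 tested). Of these, EPCAM (1.01 CPM in shATXN7L3, 0.374 CPM in shcontrol) and LYZ (0.169 CPM in shATXN7L3, 0.922 CPM in shcontrol) rested on few reads. The call of EPCAM ended without shcontrol replicate 1 (edgeR adjusted p = 0.0516) or shATXN7L3 replicate 3 (0.0992). The defining markers CDH5, PTPRC, CD3E, COL1A1 and PDGFRB averaged at most 0.374 CPM in either group, and no listed marker was at 0 in all libraries. In bulk RNA, fewer cells expressing a gene and less RNA per cell cannot be told apart.

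The upstream sequences of ALDH1A1, ADH1C and the AKR1C genes are shown first, because the results turn on these genes and on near-copies beside them with other levels. The 250 bases upstream of the RefSeq start of ALDH1A1 (GRCh38.p14, minus strand, chr9:72953054-72953303) are printed 5′ to 3′ along the gene, with the single CCAAT box in capitals, 74 bases upstream of the start.
ALDH1A1: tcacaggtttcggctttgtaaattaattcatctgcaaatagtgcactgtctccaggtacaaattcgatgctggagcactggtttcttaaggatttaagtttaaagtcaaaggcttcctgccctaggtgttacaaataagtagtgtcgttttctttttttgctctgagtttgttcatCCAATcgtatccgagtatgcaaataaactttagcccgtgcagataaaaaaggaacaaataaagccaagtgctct

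The class I alcohol dehydrogenases ADH1C, ADH1B and ADH1A are neighbours on chromosome 4 with coding sequences 95.7% (ADH1C against ADH1B) and 93.9% (ADH1C against ADH1A) identical. Their corresponding 30-base stretches, taken around the proximal CCAAT box of ADH1C (chr4:99352782-99352811, chr4:99321437-99321466 and chr4:99291025-99291054, minus strand), differ from that of ADH1C at 6 bases in ADH1B and 7 bases in ADH1A. Capitals mark CCAAT read on the opposite strand (ATTGG), which is present 1 time in ADH1C, 2 times in ADH1B and 0 times in this stretch of ADH1A.
ADH1C: tgtgtagttggaATTGGgtgttatatgagc
ADH1B: tgtggaATTGGaATTGGatgttacacaagc
ADH1A: tgtggaactggaatcgggtgttattcaagc

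The AKR1C genes on chromosome 10 are near-copies as well, and the 250 bases upstream of AKR1C1 and AKR1C2 differ at 1 of 246 aligned bases. The 30 bases around the CCAAT box (capitals, opposite strand) lie at chr10:4963326-4963355 on the plus strand for AKR1C1, at chr10:5003921-5003950 on the minus strand for AKR1C2 and at chr10:5048696-5048725 on the plus strand for AKR1C3.
AKR1C1: ctctcacatgccATTGGttaaccagcagac
AKR1C2: ctctcacatgccATTGGttaaccagcagac
AKR1C3: cttttacatgctATTGGttaaccattaggc

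Of the 37 genes, 28 had enough counts to be tested, 10 fell, 4 rose and 14 did not pass the test in shATXN7L3 (edgeR quasi-likelihood test, Benjamini-Hochberg adjusted p under 0.05 over 17935 tested genes). Over all tested genes 12.0% were called lower and 12.2% higher, against 35.7% and 14.3% of the tested family genes. Calls are more frequent among abundant genes. Among tested genes with a mean of at least 50 CPM, 38.4% were called in either direction, against 9 of the 13 family genes at that level (8 lower and 1 higher). The median log2 fold change was -0.09 over the tested family genes and 0.01 over all tested genes, with a range in the families of -1.10 to 0.71. With DESeq2, 10 family genes were lower and 3 higher, against 8.25% and 7.34% of all genes it tested. All 37 genes are protein-coding, and of tested protein-coding genes 28.8% were called (14.4% lower, 14.5% higher), against 14 of the 28 family genes (50%). By family, 5 ALDH genes fell and 4 rose of 14 tested, 4 AKR genes fell and 0 rose of 11, and 1 ADH gene fell and 0 rose of 3. The shATXN7L3 libraries lay wholly below the shcontrol libraries in 13 of the 28 genes and wholly above in 5, where all tested genes gave 18.4% and 19.8% (38.3% together).

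**Figure D1:**
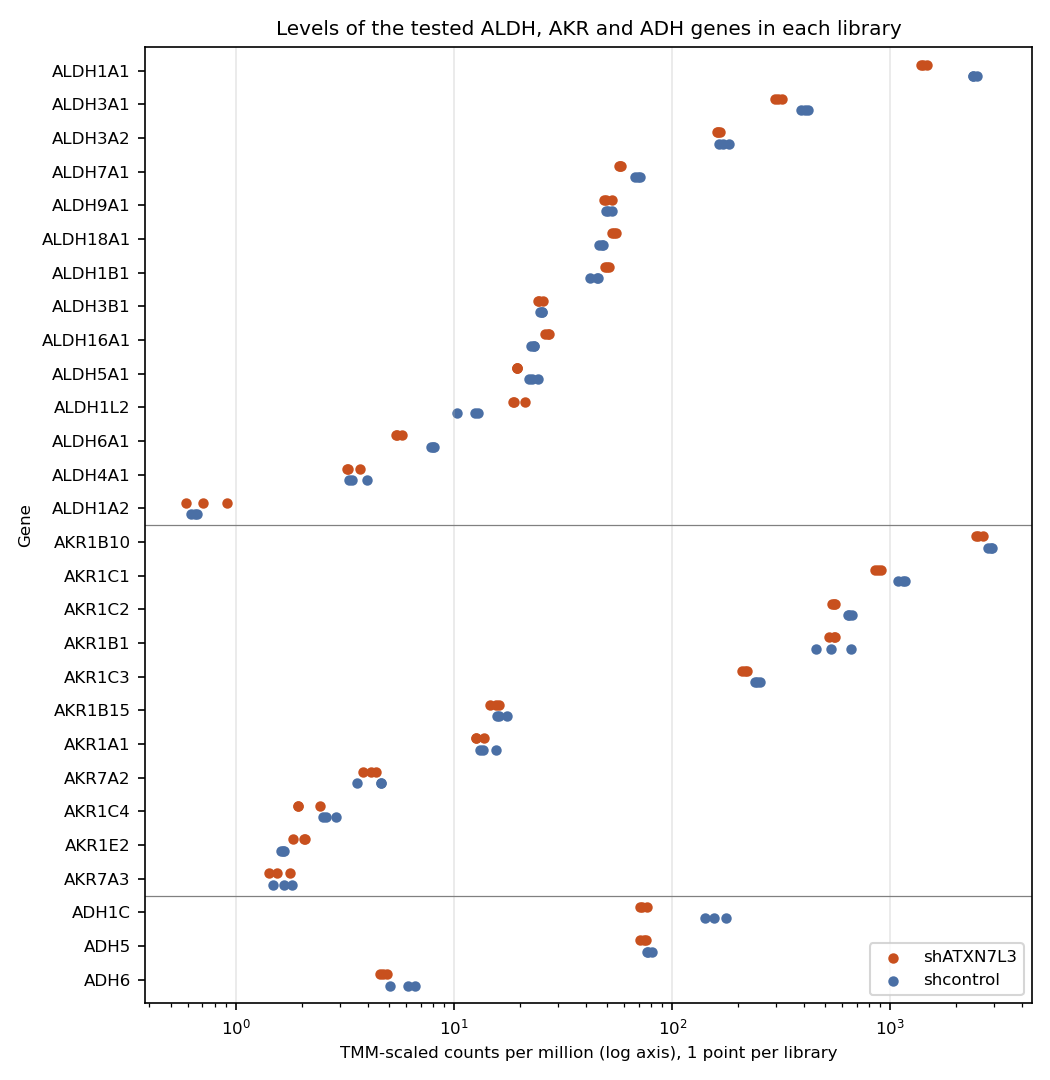
Level of each of the 28 tested genes in each library, in scaled counts per 1e6 on a log axis, with shATXN7L3 points above shcontrol points for each gene and lines between the ALDH, AKR and ADH families. AKR1B10 and ALDH1A1 have the highest counts, and the groups are well apart for ALDH1A1 and ADH1C.

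**Figure D2:**
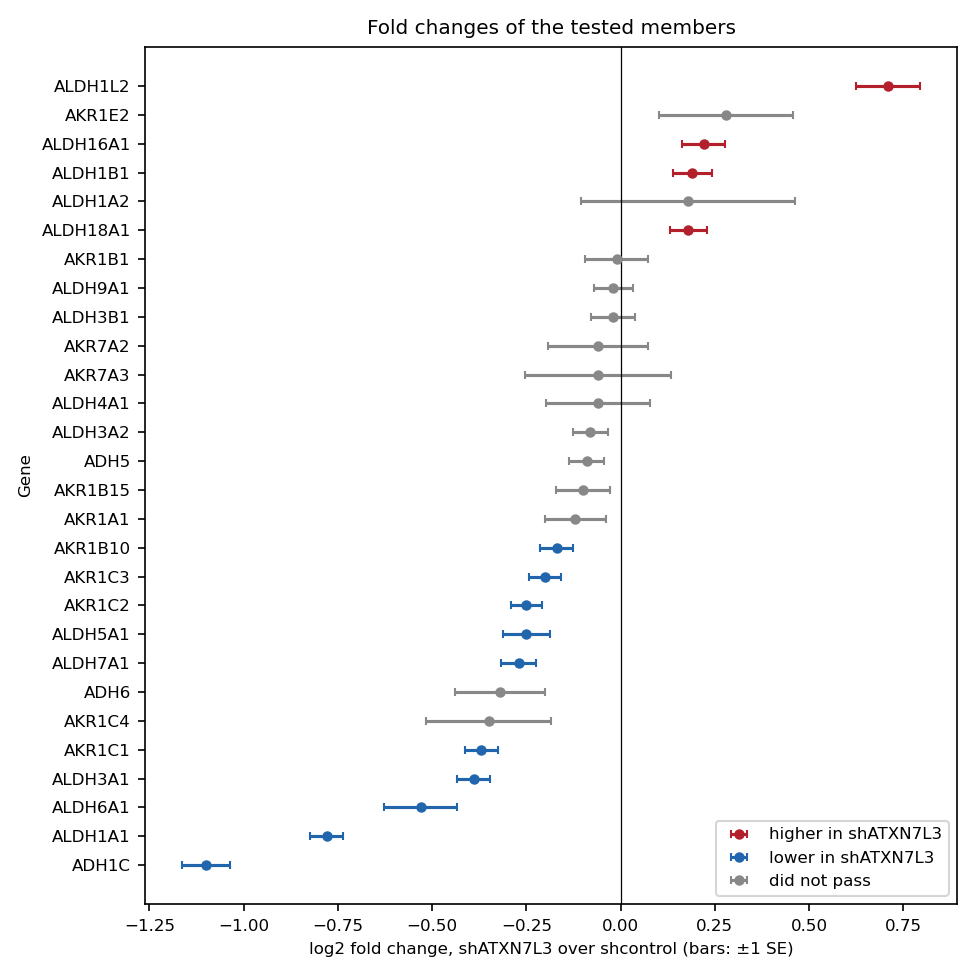
Log2 fold change of each tested gene, shATXN7L3 over shcontrol, with bars of 1 standard error on each side and the result of the test in colour. Values run from -1.10 for ADH1C to 0.71 for ALDH1L2.

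Among enzymes that oxidise retinaldehyde, the abundant ALDH1A1 fell, ALDH1B1 rose slightly and the others were nearly silent. ALDH1A1, the cytosolic enzyme that makes retinoic acid from retinaldehyde (GRCh38, chromosome 9 from 72900662 to 73080442, minus strand), had 1413, 1465 and 1378 CPM in the shATXN7L3 libraries, against 2403, 2399 and 2486 CPM in the shcontrol libraries. The groups did not overlap, and the gap between them was far wider than the spread within either. ALDH1A1 fell to 58.4% of the control level (55.0% to 62.0% at ± 2 SE; log2 fold change -0.78 ± 0.0428 SE; edgeR adjusted p = 8.27e-11). The summed level of all 37 genes was 6988 to 7316 CPM in shATXN7L3 and 8773 to 9324 CPM in shcontrol. Without ALDH1A1 it was 5611 to 5852 CPM in shATXN7L3 and 6374 to 6838 CPM in shcontrol, so the lower sum did not rest on this gene alone.

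ALDH1A2, which makes retinoic acid in the embryo, stood at 0.731 ± 0.160 CPM in shATXN7L3 and 0.642 ± 0.0186 CPM in shcontrol and did not pass (edgeR adjusted p = 0.703). ALDH1A3, the third of these enzymes, had 5, 5 and 7 reads in the shATXN7L3 libraries, against 0, 2 and 0 reads in the shcontrol libraries. These counts were too few for the filter. With no filter the gene passed (edgeR adjusted p = 0.0167), a call that rests on 19 reads in all. ALDH1B1, a mitochondrial aldehyde dehydrogenase that takes acetaldehyde and retinaldehyde, had 49.9, 51.3 and 49.3 CPM in shATXN7L3, against 44.9, 45.6 and 41.7 CPM in shcontrol. It rose by a small amount (log2 fold change 0.19 ± 0.0516, edgeR adjusted p = 0.0115), and the call ended without shATXN7L3 replicate 2 (edgeR adjusted p = 0.0625).

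In the ALDH3 family, whose members oxidise aromatic, medium-chain and fatty aldehydes, 1 gene fell and its neighbour did not pass. ALDH3A1, which is inducible through the aryl hydrocarbon receptor (chromosome 17 from 19737984 to 19748943, minus strand), had 297, 304 and 319 CPM in shATXN7L3, against 417, 388 and 405 CPM in shcontrol. The groups did not overlap, and the level in shATXN7L3 was 76.1% of control (71.5% to 80.9% at ± 2 SE; log2 fold change -0.39 ± 0.0445, edgeR adjusted p = 1.83e-06). ALDH3A2, the fatty aldehyde dehydrogenase on the same chromosome (19648136 to 19677598, plus strand), had 160, 165 and 162 CPM in shATXN7L3, against 164, 170 and 181 CPM in shcontrol. These values overlapped, and the difference did not pass (log2 fold change -0.08 ± 0.0459, edgeR adjusted p = 0.213). ALDH3B1 stood at 24.8 ± 0.737 CPM in shATXN7L3 and 25.1 ± 0.336 CPM in shcontrol (edgeR adjusted p = 0.868). ALDH3B2 had 1 read in shATXN7L3 and 0 in shcontrol, where a single library with 0, taken by itself, allows up to 3 reads. The coding sequences of ALDH3A1 and ALDH3A2 are 67.0% identical, with no identical run longer than 14 bases.

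Mitochondrial dehydrogenases of amino acid breakdown fell in 3 cases. ALDH6A1, which acts on methylmalonate semialdehyde in valine breakdown (chromosome 14 from 74056850 to 74084493), had 5.46, 5.73 and 5.4 CPM in shATXN7L3, against 7.82, 8.1 and 8.0 CPM in shcontrol. Its log2 fold change was -0.53 ± 0.0968 (edgeR adjusted p = 0.000419). ALDH7A1, antiquitin of lysine breakdown (chromosome 5 from 126531200 to 126595418), had 57.5, 58.1 and 56.9 CPM in shATXN7L3, against 69.6, 71.1 and 67.4 CPM in shcontrol (log2 fold change -0.27 ± 0.0467, edgeR adjusted p = 0.000228). ALDH5A1, succinic semialdehyde dehydrogenase of GABA breakdown (chromosome 6 from 24494852 to 24537207), had 19.3, 19.3 and 19.4 CPM in shATXN7L3, against 22.7, 21.9 and 24.2 CPM in shcontrol (log2 fold change -0.25 ± 0.0624, edgeR adjusted p = 0.0063). In none of these 3 genes did the groups overlap. Exons of ALDH6A1 and ALDH5A1 overlap BBOF1 and GPLD1 on the opposite strand, and those of ALDH3A1 and ALDH1L2 overlap RP11-311F12.2 and C12orf45 in the same way, and without a stated strand setting the reads of such pairs cannot be told apart. ALDH4A1, which completes proline breakdown, did not pass, at 3.39 ± 0.259 CPM in shATXN7L3 and 3.54 ± 0.362 CPM in shcontrol (edgeR adjusted p = 0.806). ALDH9A1, an enzyme of carnitine synthesis, had 53.0, 48.8 and 49.4 CPM in shATXN7L3, against 49.5, 52.8 and 50.7 CPM in shcontrol, with overlapping groups (edgeR adjusted p = 0.852). ALDH8A1 had 6 reads over all libraries.

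The ALDH genes that rose include a folate enzyme and a synthetic enzyme of proline. ALDH1L2, the mitochondrial 10-formyltetrahydrofolate dehydrogenase (chromosome 12 from 105019784 to 105084577, minus strand), had 21.2, 18.7 and 18.5 CPM in shATXN7L3, against 10.3, 12.5 and 12.8 CPM in shcontrol. The groups did not overlap, although shATXN7L3 replicate 1 was the highest and shcontrol replicate 1 the lowest of their groups. ALDH1L2 rose to 164% of the control level (146% to 184% at ± 2 SE; log2 fold change 0.71 ± 0.0846, edgeR adjusted p = 3.28e-06). Its cytosolic counterpart ALDH1L1 had 3 reads in all. ALDH18A1, which makes pyrroline-5-carboxylate for proline and ornithine synthesis, had 53.8, 52.9 and 54.9 CPM in shATXN7L3, against 48.3, 47.6 and 46.3 CPM in shcontrol. It rose (log2 fold change 0.18 ± 0.0485, edgeR adjusted p = 0.00885), and the call ended without shATXN7L3 replicate 3 (0.0536). ALDH16A1 had 26.1, 26.8 and 27.2 CPM in shATXN7L3, against 23.2, 23.3 and 22.4 CPM in shcontrol (log2 fold change 0.22 ± 0.0574, edgeR adjusted p = 0.00859), and did not pass with DESeq2 (adjusted p = 0.0598). ALDH16A1 overlaps exons of CTD-3148I10.9 on its own strand and of PIH1D1 on the other, so its reads are not certain to be its own.

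**Figure D3:**
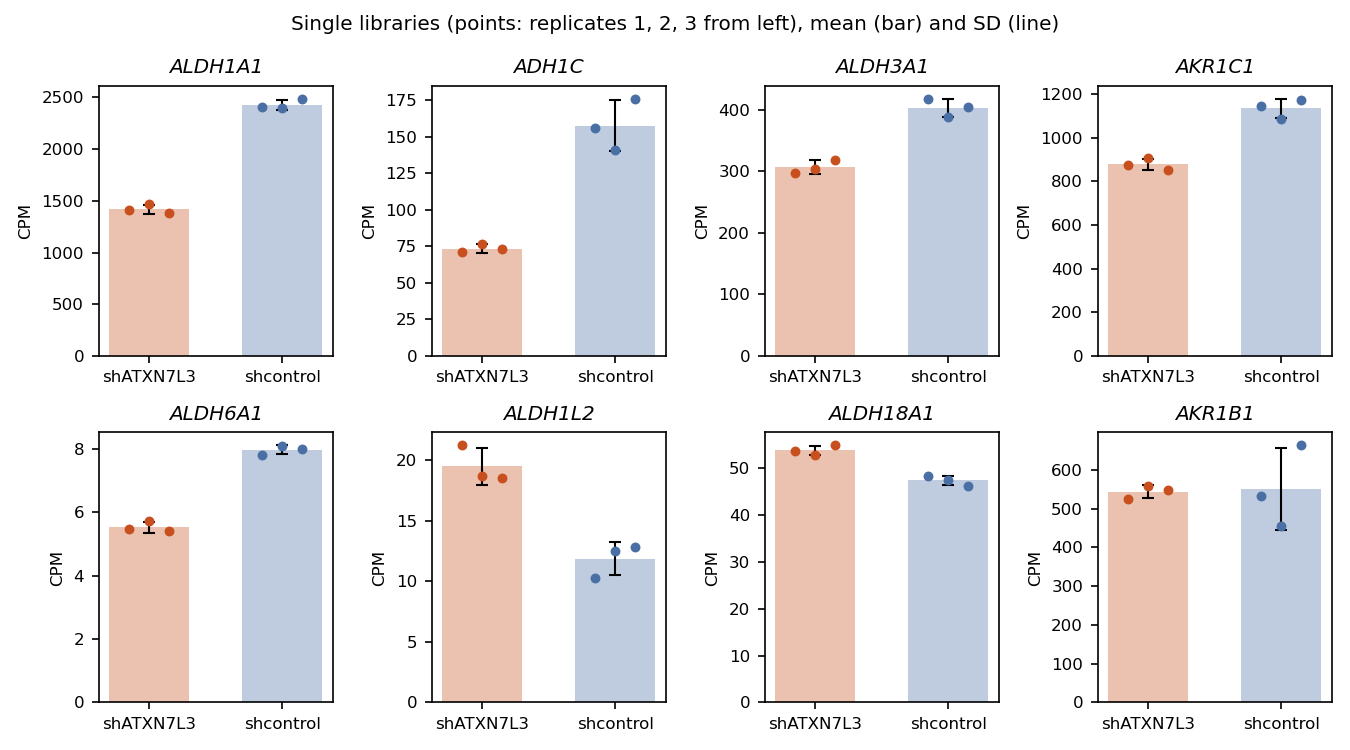
Level of 8 genes in single libraries, in scaled counts per 1e6 from 0, with the mean as a bar and the SD as a line, shATXN7L3 left of shcontrol. The shcontrol libraries of AKR1B1 run from 454 to 663 CPM and enclose all shATXN7L3 libraries, while the groups of the other 7 genes do not overlap.

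Among the aldo-keto reductases, 3 of the 4 tested steroid-reducing AKR1C genes fell, by small amounts, and AKR1C4 did not pass. AKR1C1, which inactivates progesterone as a 20-alpha-hydroxysteroid dehydrogenase (chromosome 10 from 4963253 to 4983283, plus strand), had 875, 906 and 853 CPM in shATXN7L3, against 1146, 1088 and 1172 CPM in shcontrol. That is 77.4% of control (72.8% to 82.2% at ± 2 SE; log2 fold change -0.37 ± 0.0440, edgeR adjusted p = 3.30e-06). AKR1C2, which reduces dihydrotestosterone (4987400 to 5018031, minus strand), had 555, 541 and 551 CPM in shATXN7L3, against 640, 647 and 666 CPM in shcontrol (log2 fold change -0.25 ± 0.0410, edgeR adjusted p = 0.000156). AKR1C3, which reduces androstenedione to testosterone (5035354 to 5107686, plus strand), had 216, 219 and 209 CPM in shATXN7L3, against 244, 240 and 253 CPM in shcontrol (log2 fold change -0.20 ± 0.0429, edgeR adjusted p = 0.00201). None of the 3 genes had overlapping groups, though AKR1C3 shares exons on its own strand with RP11-499O7.4. AKR1C4, the form known from hepatocytes, stood at 2.08 ± 0.284 CPM in shATXN7L3 and 2.64 ± 0.192 CPM in shcontrol and did not pass (log2 fold change -0.35 ± 0.165, edgeR adjusted p = 0.142). The pseudogene AKR1C7P on the same chromosome, outside the symbol pattern, rose (log2 fold change 0.46, edgeR adjusted p = 0.0321). It stood at 3.33 CPM in shATXN7L3 and 2.42 CPM in shcontrol and did not pass with DESeq2 (adjusted p = 0.184). The call of AKR1C7P also ended without shcontrol replicate 1 (edgeR adjusted p = 0.113) or 3 (0.0568), or without shATXN7L3 replicate 1 (0.0783) or 3 (0.117). The 972-base coding sequences of AKR1C1 and AKR1C2 differ at 19 bases and hold an identical run of 189 bases, and AKR1C1 and AKR1C3 differ at 83. How reads with several matches were counted is not given in the sources used here, so the values of AKR1C1, AKR1C2 and AKR1C3 are uncertain to that extent and are not independent of each other.

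AKR1B10, a reductase of retinaldehyde and other aldehydes (chromosome 7 from 134527592 to 134541408, plus strand), was the most abundant of the 37 genes per length of exon, at 1460 CPM per kilobase in shATXN7L3 and 1647 in shcontrol. ALDH1A1 came next in level with 498 CPM per kilobase in shATXN7L3 and 853 in shcontrol. AKR1B10 had 2513, 2653 and 2471 CPM in shATXN7L3, against 2914, 2807 and 2894 CPM in shcontrol. It fell to 88.6% of control (83.5% to 94.2% at ± 2 SE; log2 fold change -0.17 ± 0.0435, edgeR adjusted p = 0.0059), and the call ended without shATXN7L3 replicate 1 (0.0524) or 3 (0.07). The processed pseudogene AKR1B10P1, 95.2% identical to the coding sequence, had 24.2 ± 1.64 CPM in shATXN7L3 and 27.5 ± 1.05 CPM in shcontrol (log2 fold change -0.18, edgeR adjusted p = 0.0384). The pseudogene did not pass with DESeq2 (adjusted p = 0.139) or with library size alone (edgeR adjusted p = 0.113). Its call also ended without shcontrol replicate 2 (0.153) or shATXN7L3 replicate 1 (0.0834) or 3 (0.223). It holds an identical run of 112 bases with AKR1B10. How reads matching both were counted is not given, so the values of AKR1B10P1 are not certain to be its own. AKR1B15, 92.1% identical, stood at 15.3 ± 0.786 CPM in shATXN7L3 and 16.4 ± 0.893 CPM in shcontrol and did not pass (edgeR adjusted p = 0.358).

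AKR1B1, aldose reductase of the polyol pathway (chromosome 7 from 134442350 to 134459284, minus strand), had 524, 558 and 549 CPM in shATXN7L3, against 532, 454 and 663 CPM in shcontrol. The control libraries alone spread more widely than the difference between groups, and the gene did not pass (log2 fold change -0.01 ± 0.0835, edgeR adjusted p = 0.923). When shcontrol replicate 3 was left out, AKR1B1 passed in the other direction (log2 fold change 0.14, edgeR adjusted p = 0.0419), while without shcontrol replicate 2 it was -0.13 and did not pass (0.199). The sign was also positive, without passing, with scaling by library size alone (0.03) and without shATXN7L3 replicate 1 (0.01), so no direction is given for AKR1B1. The remaining reductases were low and did not pass. AKR1A1, an aldehyde reductase, stood at 13.0 ± 0.655 CPM in shATXN7L3 and 14.1 ± 1.27 CPM in shcontrol. AKR7A2, AKR7A3 and AKR1E2 had 1.57 to 4.11 CPM on average in shATXN7L3 and 1.63 to 4.28 CPM in shcontrol. The groups of AKR1E2 did not overlap (log2 fold change 0.28 ± 0.177, edgeR adjusted p = 0.279). AKR1D1, the 5-beta-reductase of bile acid synthesis, had 2 reads in shATXN7L3 and 0 in shcontrol. Taken by itself, a single library with 0 allows up to 3 reads.

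The 7 alcohol dehydrogenase genes lie in 1 cluster on chromosome 4, all on the minus strand, and 1 of them fell. ADH1C, a class I enzyme of ethanol oxidation (99336492 to 99353027), had 71.0, 76.7 and 72.9 CPM in shATXN7L3, against 156, 141 and 176 CPM in shcontrol. It fell to 46.5% of control (42.6% to 50.8% at ± 2 SE; log2 fold change -1.10 ± 0.0630, edgeR adjusted p = 1.29e-10), the lowest log2 fold change among the 28 tested family genes. ADH5, the class III enzyme that clears formaldehyde bound to glutathione (99070978 to 99088801), had 75.3, 73.8 and 71.3 CPM in shATXN7L3, against 76.7, 80.4 and 77.2 CPM in shcontrol. These groups did not overlap either, but the gap was small and did not pass (log2 fold change -0.09 ± 0.0463, edgeR adjusted p = 0.189). ADH6 (99202638 to 99219537) had 4.90, 4.73 and 4.56 CPM in shATXN7L3, against 6.13, 6.58 and 5.05 CPM in shcontrol (log2 fold change -0.32 ± 0.119, edgeR adjusted p = 0.0564). It passed without shcontrol replicate 3 (0.0102).

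ADH1A and ADH1B, the neighbours of ADH1C in the cluster and, like it, abundant in adult liver, were nearly silent. ADH1A had 3, 3 and 1 reads in shATXN7L3, against 0, 0 and 2 in shcontrol, and ADH1B had 1, 0 and 1 reads in shATXN7L3, against 1, 0 and 4 in shcontrol. ADH4 and ADH7, of classes II and IV, had 6 and 19 reads over all libraries. No untested gene of the families had more than 7 reads in a library. The coding sequences of ADH1C and ADH1B hold an identical run of 170 bases.

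**Figure D4:**
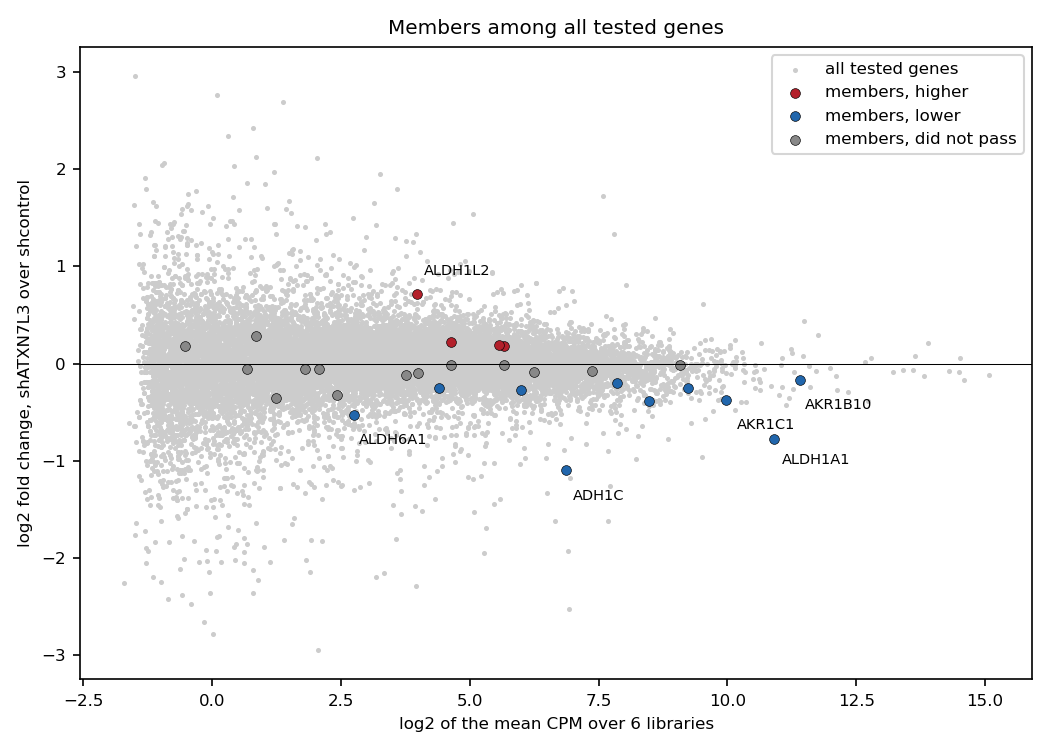
Log2 fold change, shATXN7L3 over shcontrol, against the log2 of the mean level in CPM for all 17935 tested genes (grey) and the 28 tested family genes (coloured by the result of the test). ALDH1A1 (-0.78) and ADH1C (-1.10) lie well below most genes of their level, and ALDH1L2 (0.71) above.

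The sequences upstream of the genes were compared with those of other genes. RefSeq windows were held for 31 of the 37 genes, and ALDH3A1, AKR1B10 and ALDH1L2 are not among them. CCAAT, searched on both strands in the 250 bases upstream, was present in 16 of the 31 (51.6%), against 33.0% of 27305 promoters. Among tested family genes it was present in 7 of 8 windows of genes that fell, 1 of 2 of genes that rose and 3 of 13 of genes that did not pass. The other windows belong to untested, nearly silent genes. There CCAAT was present for ADH1A, ADH1B, ADH4, ALDH1A3 and ALDH8A1 and absent for ADH7, AKR1D1 and ALDH1L1, so it was not particular to genes that fell. Over all tested genes with a window the shares were 35.5% for genes called lower, 34.6% for genes called higher and 34.6% for the others. The 7 windows are not independent, since AKR1C1 and AKR1C2 are near-identical and AKR1C3 is related to them. TATAAA was found in 5 windows (16.1%, against 11.1% of all promoters). The core of the antioxidant response element, TGACNNNGC, was found in 1 window, that of AKR7A2 (3.23%, against 11.0%). Sequence outside these 250 bases was not searched, so the share says nothing on more distant elements. These motifs were chosen with the fold changes known, none of the 3 contains another, and the windows are not all outside exons of the deposited gene models, some of which start further upstream. Of the 250 bases, 250 lay in such exons for ADH1C, 166 for AKR1C2, 162 for AKR1C1, 43 for ADH1A, 3 for ALDH1A1 and 0 for ADH1B.

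Other enzymes of alcohols and carbonyls, outside the symbol pattern, rose in 3 and fell in 3 of 16 tested genes. The median log2 fold change was -0.08, and 37.5% were called, against 24.2% of all tested genes. Of tested protein-coding genes 28.8% were called, and of tested genes with a mean of at least 50 CPM 38.4%. Both shares are also to be set beside the lists below. ALDH2, the mitochondrial enzyme that clears acetaldehyde from ethanol, had 105, 108 and 109 CPM in shATXN7L3, against 140, 139 and 133 CPM in shcontrol (log2 fold change -0.35 ± 0.0438, edgeR adjusted p = 5.65e-06). ALDH2 shares exons on its own strand with RP11-162P23.2, so its reads are not certain to be its own. The carbonyl reductase CBR1 fell as well (-0.38 ± 0.0518). DHRS1 (0.59 ± 0.123) and SORD, the sorbitol dehydrogenase that follows AKR1B1 in the polyol pathway (0.21 ± 0.0489), rose. The other 2 called genes were CAT (0.18), with a DESeq2 adjusted p of 0.159, and CBR4 (-0.26), with a DESeq2 adjusted p of 0.0673, neither past the threshold in that tool. Leaving out 1 library also ended the call of CAT in 4 of 6 cases (adjusted p 0.0529 to 0.179) and that of CBR4 in 3 of 6 (0.0581 to 0.108). Without shcontrol replicate 3 the list had 5 lower genes.

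Retinoid enzymes, carriers and receptors rose in 4 and fell in 3 of 20 tested genes (median 0.12; 35% called, where all tested genes gave 24.2%). The retinol dehydrogenase DHRS9, upstream of ALDH1A1, stood at 24.2 ± 1.89 CPM in shATXN7L3 and 14.4 ± 0.713 CPM in shcontrol (log2 fold change 0.75 ± 0.0720, edgeR adjusted p = 2.28e-07). The retinoic acid carrier CRABP2 stood at 18.2 ± 1.20 CPM in shATXN7L3 and 10.3 ± 1.28 CPM in shcontrol (0.83 ± 0.0860, edgeR adjusted p = 5.89e-07). The retinol receptor STRA6 rose (0.35 ± 0.0600), and CYP26B1, which degrades retinoic acid, fell (-0.40 ± 0.0659). The other called genes were RDH11 (0.24), RDH10 (-0.12) and DHRS3 (-0.24). RDH11 shares exons on its own strand with RP11-1012A1.4. The call of RDH10 ended with scaling by library size alone (edgeR adjusted p = 0.18) and without shcontrol replicate 1 or any 1 of the shATXN7L3 libraries (0.111 to 0.159).

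Of 23 tested regulators and targets of NRF2, a transcription factor of the antioxidant response whose known targets include AKR1B10, AKR1C1 and ALDH3A1, 9 fell and 2 rose (median -0.11; 47.8% called, against 24.2% of all tested genes). EPHX1, microsomal epoxide hydrolase, stood at 253 ± 1.12 CPM in shATXN7L3 and 393 ± 21.2 CPM in shcontrol (log2 fold change -0.64 ± 0.0454, edgeR adjusted p = 2.75e-09). GCLC (-0.46 ± 0.0416), NQO1 (-0.39 ± 0.0435) and PGD (-0.36 ± 0.0408) also fell. NFE2L2, which encodes NRF2 and was named here after its value was seen, stood at 73.6 ± 1.43 CPM in shATXN7L3 and 92.3 ± 2.64 CPM in shcontrol (-0.33 ± 0.0456, edgeR adjusted p = 2.22e-05). The other genes that fell were TXNRD1 (-0.26), ME1 (-0.26), OSGIN1 (-0.20) and FTL (-0.16). OSGIN1 did not pass with DESeq2 (adjusted p = 0.0652), with library size alone (0.0559) or without shATXN7L3 replicate 2 (0.0868). FTL did not pass with library size alone (0.0674), nor when shcontrol replicate 2 (0.088), shATXN7L3 replicate 1 (0.0528) or shATXN7L3 replicate 3 (0.2) was left out. Those that rose were SRXN1 (0.29) and PIR (0.35). PIR did not pass with DESeq2 (adjusted p = 0.121), nor when shcontrol replicate 2 (0.0539), shATXN7L3 replicate 2 (0.0641) or shATXN7L3 replicate 3 (0.0684) was left out. GCLC, NFE2L2, OSGIN1 and SRXN1 share exons with other genes on their own strand. EPHX1 and NQO1 overlap exons of other genes on the opposite strand. When all genes with same-strand overlap were left out, 6 genes of this list fell and 1 rose.

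Steroid reductases and dehydrogenases outside the AKR family rose in 3 and fell in 0 of 13 tested genes (median 0.09). The 23.1% called is near the 24.2% of all tested genes. They were HSD3B7 of bile acid synthesis (0.49 ± 0.0667), SRD5A3 (0.36 ± 0.0584) and HSD17B14 (0.66 ± 0.144). Partner enzymes in folate, proline, lysine, GABA and branched-chain amino acid pathways rose in 6 and fell in 1 of 21 tested genes (median 0.05; 33.3% called, against 24.2% overall), and 3 rose without shATXN7L3 replicate 1. The mitochondrial folate enzymes MTHFD1L (0.30 ± 0.0604) and SHMT2 (0.20 ± 0.0476) rose, as did HIBADH of valine breakdown (0.17 ± 0.0456), whose call ended without shATXN7L3 replicate 1 (edgeR adjusted p = 0.0793). The 1 that fell was MTHFD1 (-0.13), whose call ended without shcontrol replicate 2 (0.18), without any 1 of the shATXN7L3 libraries (0.09 to 0.172) and with DESeq2 (0.0791).

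The libraries in which 10 family genes were lower are also those with lower hepatocyte markers, as given above. Of the 10 genes that fell, shcontrol replicate 2 was the lowest control library in 7 and shcontrol replicate 3 the highest in 6. Over the 28 tested family genes these counts were 10 and 13. The shares over all tested genes were not computed, and the AKR1C genes among the 10 are not independent. The part of the hepatocyte markers and of the other marker lists in the result was not tested.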

How the data were processed

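Poly-A RNA of HCCLM3 cells was sequenced in 6 libraries. The authors deposited whole-number counts of reads for each gene symbol, without normalization. GRCh38 is the build in the submitters' processing notes, and the tools there are edgeR 3.12.1, Subread 1.5.1 with featureCounts, STAR 2.5.3a and Trimmomatic 0.36. Which annotation release and strand setting were used, and how multiply matching reads were counted, is not stated there. Of the 37 genes, 4 share exonic bases with a gene of the same strand, and 8 only with a gene of the opposite strand. Genes were filtered with filterByExpr of edgeR 4.0.16 (minimum count 10, minimum total 15; R 4.3.3), scaled by TMM and tested with glmQLFit and glmQLFTest in a model with the group alone, and p-values were adjusted by Benjamini-Hochberg over 17935 genes, at a threshold of 0.05. The SE is the log2 fold change divided by the square root of F, an approximation. Levels are means ± SD of scaled CPM. The procedure was tested on simulated data.

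Chi-square per gene between libraries of a group (1 under sampling noise) was 1.59 to 2.18 in shATXN7L3 and 3.6 to 6.52 in shcontrol, and every library was kept as its own replicate. Alternatives were other scalings, filters, DESeq2 1.42.0, limma voom 3.58.1, a replicate block, each library left out, and no genes with same-strand overlap. Named are all family genes, those past the threshold or at a mean of at least 50 CPM with single values, and from each related list up to 4 called genes of smallest p, and the further called genes of a list were added after their values were seen. For 1 gene that this rule names, the values are not reported here. The members and lists were chosen with earlier results of these data known. Upstream windows are from RefSeq (GRCh38.p14), and coding sequences are the longest open reading frames of GENCODE 29 transcripts, aligned with Biopython.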

Additional observations from a re-analysis of the deposited data

How the results depend on the processing

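The count of family genes that fell was 9 to 11 and of those that rose 3 to 5 in every alternative tried. Leaving out 1 library gave 9 to 11 and 3 to 5, 1547 to 2257 genes lower and 1543 to 2224 higher over all tested genes, and a log2 fold change of -0.89 to -0.85 for ATXN7L3. DESeq2 called 1344 genes higher over all tested genes, against 2182 with edgeR, and 1510 lower, against 2150. Scaling by library size alone gave 2955 higher and 1604 lower and a median of 0.05 over all genes, with 4 family genes higher and 10 lower. The log2 fold change of AKR1B1 ran from -0.13 to 0.14 with 1 library left out. Libraries of the same replicate number showed no clear shared deviation, since their deviations from the group mean correlated at -0.016 to 0.0442. The labels do not say whether they were prepared together, and these correlations cannot exclude it. With a replicate block 10 family genes were lower and 4 higher, with 2188 genes higher and 2140 lower over all tested genes. The untested family genes had at most 7 reads in a library, too few for the filter on low counts.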
